A study of Mus musculus with 125 samples.

Results

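The genes described are Kdr, Flt1 and Flt4, which encode the 3 vascular endothelial growth factor (VEGF) receptors VEGFR2, VEGFR1 and VEGFR3, and Nrp1 and Nrp2, which encode the neuropilins. They were chosen by symbol and are 5 of the 27998 gene rows of the single-cell tables. For chromatin, all peaks overlapping each gene or lying within 50 kb of it (mouse build mm10) were taken in every endothelial and input peak list. For RNA, UMIs (unique molecular identifiers, which count molecules) were taken in brain barcodes with at least 200 genes, a mitochondrial share of at most 10% and at least 3 of the 6 endothelial genes Cdh5, Pecam1, Egfl7, Esam, Tie1 and Cldn5. That rule kept 24212 of 42340 barcodes, called endothelial barcodes here.

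VEGF receptors are tyrosine kinases of the endothelial surface. VEGFR2 carries most of the signal of VEGF-A for growth, migration and permeability, VEGFR1 binds VEGF-A tightly with a weak kinase and also exists as a soluble form that traps the ligand, and VEGFR3 answers VEGF-C and VEGF-D in lymphatic vessels and in sprouting capillaries. Neuropilins have no kinase: they hold VEGF for its receptors and, with plexins, form the receptors of class 3 semaphorins. In developing vessels Nrp1 is known as an arterial gene and Nrp2 as a venous and lymphatic gene.

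The series compares endothelial cells of mouse organs at 3 ages by ATAC-seq, which reads open chromatin through cutting by a transposase, by nuclear RNA-seq, and by single-cell RNA-seq of brain. The ATAC-seq part has 37 endothelial libraries (12 adult and 14 P6 from brain, heart, kidney, liver, lung and retina, and 11 E12 from brain, heart and trunk) and 29 libraries of unsorted input nuclei (10 adult, 16 P6 and 3 E12). The endothelial samples of all ages carried a GFP reporter that tamoxifen switches on in vessels, given 7 days before collection in adults, on P1 and P3 in pups, and to the dam at E10.5 for embryos. The labels place the postnatal samples at P6 and the protocol at P7. The Cre driver and strain are not given in the sources used here. Nothing says whether nuclei of several animals were pooled, so p-values measure the spread between these libraries. That spread is pooled over all groups, and a group of 1 library adds nothing to it. The RNA-seq samples (54) were not used here, because their transcript identifiers could not be paired with genes. Single-cell RNA-seq has 1 library per age: whole brain at E9.5, E12.5 and E16.5, and cortex at P8 and in adults, each enriched on CD31, an endothelial surface protein. Embryonic and postnatal brains were dissociated differently, so age, dissection and library cannot be told apart in those 5 libraries.

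The endothelial label of the ATAC-seq libraries fitted their markers: 6 of 6 endothelial genes had more peak cover in endothelial than in input nuclei in adults and at P6, and 5 of 6 at E12 (8.71%, 7.67% and 14% of all genes had). Of 40 markers of 7 other cell types 3 had more and 15 less in adults, 0 and 16 at P6, and 2 and 5 at E12, where 13.9%, 11.3% and 4.54% of all genes had less. Of 7 lymphatic or Lyve1 genes 0 had more and 4 less in adults, 0 and 2 at P6, and 1 and 2 at E12. Of 6 venous genes 1 had more and 1 less in adults. The peak lists hold 19464 to 144197 peaks (median 74218) from 10.1 to 59.1 M tags, and adult endothelial lists are the shortest (19464 to 47334). Cover of a gene is therefore given as base pairs under peaks in the gene and 50 kb on each side, per Mb of the library's whole peak length, written bp per Mb. It measures the share of open chromatin at a locus, not expression, and windows differ in length, so cover is compared between libraries and not between genes.

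The promoters are shown first because the stretch before the start was under a peak in at least 31 of 37 endothelial lists for each of the 5 genes. Each line gives the 250 bases before a transcription start in RefSeq (GRCm38.p6, the assembly of mm10), read on the gene's own strand. The GGAA core of ETS factors (or TTCC on the other strand) is in capitals. For Kdr, Flt1 and Nrp1 the annotated gene begins further upstream than the start used here. Their stretches therefore lie within the annotated gene, and positions are counted from the start used. ETS factors are transcription factors that endothelial genes depend on widely.
Kdr promoter, chr5:75978456-75978705, minus strand: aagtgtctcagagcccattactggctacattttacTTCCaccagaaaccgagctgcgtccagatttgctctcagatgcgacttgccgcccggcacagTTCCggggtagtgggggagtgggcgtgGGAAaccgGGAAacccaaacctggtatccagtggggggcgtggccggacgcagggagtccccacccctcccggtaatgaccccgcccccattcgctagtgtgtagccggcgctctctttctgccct
Flt1 promoter, chr5:147726012-147726261, minus strand: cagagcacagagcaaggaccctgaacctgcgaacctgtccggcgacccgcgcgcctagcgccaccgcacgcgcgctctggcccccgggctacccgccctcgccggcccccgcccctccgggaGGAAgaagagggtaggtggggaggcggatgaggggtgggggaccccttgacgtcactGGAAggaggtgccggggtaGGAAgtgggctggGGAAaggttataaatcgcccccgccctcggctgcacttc
Flt4 promoter, chr11:49609429-49609678, plus strand: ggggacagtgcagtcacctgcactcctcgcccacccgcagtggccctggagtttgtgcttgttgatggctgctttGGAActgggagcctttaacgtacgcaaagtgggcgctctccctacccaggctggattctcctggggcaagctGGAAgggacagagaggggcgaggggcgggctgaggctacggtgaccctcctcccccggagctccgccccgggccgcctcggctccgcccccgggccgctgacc
Nrp2 promoter, chr1:62703067-62703316, plus strand: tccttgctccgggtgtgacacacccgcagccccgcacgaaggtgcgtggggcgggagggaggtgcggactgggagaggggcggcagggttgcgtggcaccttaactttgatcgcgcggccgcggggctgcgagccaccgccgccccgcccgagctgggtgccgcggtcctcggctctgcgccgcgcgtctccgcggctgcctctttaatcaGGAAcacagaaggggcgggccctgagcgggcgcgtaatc
The Kdr stretch was under a peak in 37 of 37 endothelial and 24 of 29 input lists, and that of Flt1 in 37 and 23. Flt4 had 35 and 21, with only 2 of 10 adult input lists, and Nrp2 was covered in every list of both kinds. The Nrp1 stretch (chr8:128358823-128359072, not printed) was under a peak in 31 and 22 lists. Among 17491 genes with a RefSeq promoter and peaks to compare, 37.8% were covered in all endothelial lists, so an open start is common.

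GGAA or TTCC occurred 4 times in Kdr, 4 in Flt1, 2 in Flt4, 4 in Nrp1 and 1 in Nrp2, and in 93.4% of 27025 promoters of the same length, so its presence does not set these promoters apart. Rarer words searched on both strands were found once each: TGACGTCA, the cyclic AMP element, at position -81 of Flt1 (1.62% of promoters), and TATAAA at position -31 of Flt1 (13% of promoters), counted back from the start. GATA occurred once, in Kdr at -102 (54.1% of promoters). The GC box GGGCGG occurred 2 times in Kdr, 3 in Flt1, 3 in Flt4, 1 in Nrp1 and 5 in Nrp2 (32.9% of promoters have at least 1). Neither CACGTG (an E-box, 6.05% of promoters) nor ACAAAG (a SOX word, 16.5%) was found in any of the 5. GC content was 61.6% in Kdr, 70.4% in Flt1, 68.4% in Flt4, 64.4% in Nrp1 and 72.4% in Nrp2, against a median of 52% over all promoters.

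The 3 VEGF receptor genes were more open in endothelial than in input nuclei at every age, and the differences of the neuropilin genes were smaller. The receptor calls at E12, and the neuropilin values at all ages, depended on how the lists were scaled. On the log2 scale adult Kdr was 2.01 higher, Flt1 1.84 and Flt4 1.41, and adult Nrp1 was 0.51 higher. A gene counts as called where the adjusted p is under 0.05 and the log2 difference is at least 0.5. By that rule 4 of the 5 genes were called higher in adults (8.71% of the 20817 genes tested were), 3 of 5 at P6 (7.67% of genes) and 3 of 5 at E12 (14% of genes), and none was lower. The median difference over all genes was 0.065 in adults, 0.061 at P6 and 0.21 at E12.

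**Figure D1:**
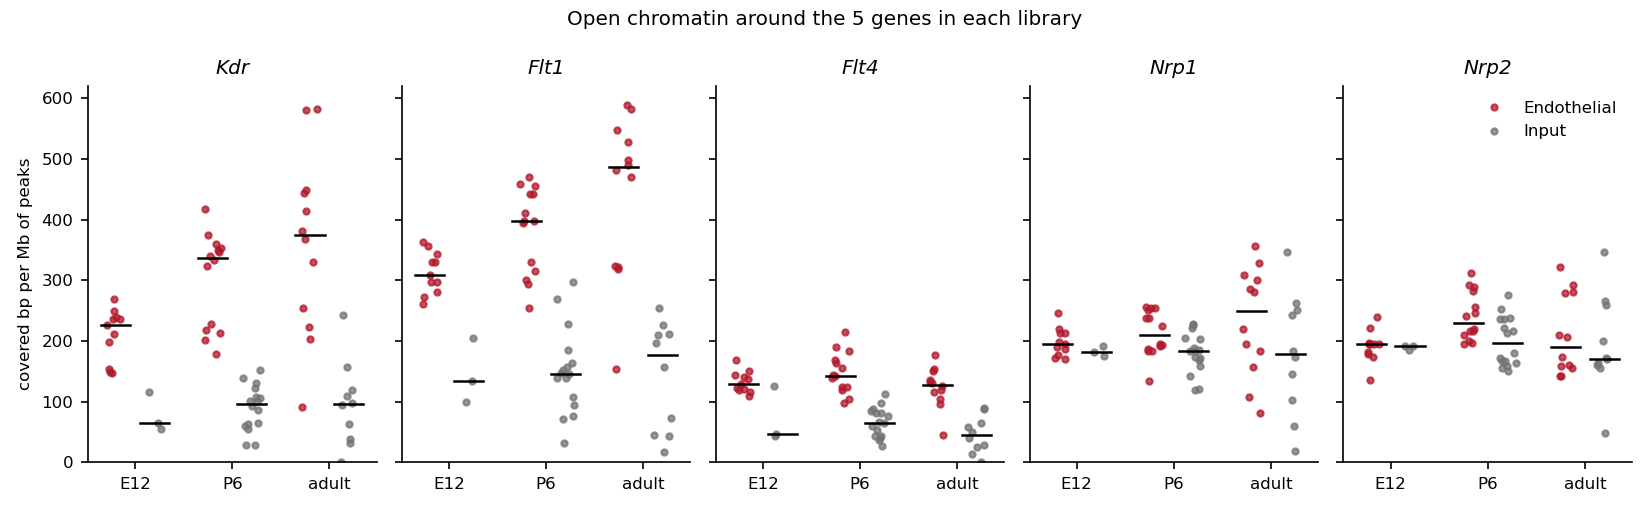
Cover of each gene in every ATAC-seq library, in bp per Mb of the library's peak length, at E12, P6 and adult age. Red points are endothelial libraries, grey points input libraries and bars medians. Endothelial medians of Kdr, Flt1 and Flt4 lie above input medians at each age. Those of Nrp1 and Nrp2 lie closer to them, with adult Nrp1 at 250 against 178.

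Kdr, the main VEGF-A signalling receptor, had the greatest difference of the 5 genes. The 12 adult endothelial libraries ran from 91.5 to 582 bp per Mb with a median of 374, and the 10 inputs from 0 to 243 with a median of 95.9. At P6 the endothelial libraries ran from 179 to 418 (median 337) and the inputs from 28.2 to 152 (median 96.9). At E12 they ran from 147 to 269 (median 227) against 55.1 to 115 (median 64.5) in the 3 inputs. The groups did not overlap at P6 or E12, and within each organ every endothelial library lay above every input library at all 3 ages. The log2 difference was 2.01 in adults (SE 0.20, limma adjusted p = 1.86e-10), 1.74 at P6 (SE 0.17, limma adjusted p = 1.58e-10) and 1.37 at E12 (SE 0.30, limma adjusted p = 9.28e-04). In adults only 0.0288% of genes had a higher difference.

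Flt1, the high-affinity VEGF-A receptor with the weak kinase, followed. Its adult endothelial libraries ran from 154 to 589 bp per Mb (median 486) and its inputs from 17.5 to 254 (median 177). At P6 the ranges were 254 to 469 (median 397) and 32.5 to 297 (median 146). At E12 they were 262 to 363 (median 309) and 99.7 to 206 (median 134). Across organs the adult and P6 groups overlapped, but within every organ at all 3 ages the endothelial libraries lay above the inputs. The log2 difference was 1.84 in adults (SE 0.19, limma adjusted p = 2.04e-10), 1.46 at P6 (SE 0.16, limma adjusted p = 1.19e-09) and 1.09 at E12 (SE 0.28, limma adjusted p = 0.00378).

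Flt4, the receptor of VEGF-C and VEGF-D, showed a smaller difference. Adult endothelial libraries ran from 45.8 to 177 bp per Mb (median 128) and inputs from 0 to 89.4 (median 45.4). At P6 the ranges were 98.2 to 216 (median 143) and 26.4 to 113 (median 65.5). At E12 they were 109 to 168 (median 129) and 43.4 to 127 (median 46.3). Endothelial libraries lay above the inputs in 5 of 6 adult organs, with overlap in lung, in 6 of 6 organs at P6 and in 2 of 3 at E12, with overlap in heart. The log2 difference was 1.41 in adults (SE 0.20, limma adjusted p = 2.60e-07), 1.10 at P6 (SE 0.17, limma adjusted p = 1.18e-06) and 0.94 at E12 (SE 0.29, limma adjusted p = 0.0176). The Flt4 window also holds Olfr1380, 1700024J04Rik, Scgb3a1 and Cnot6, and the Flt1 window part of Pan3, so peaks of those genes enter the sum.

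The E12 calls rest on 1 input library per organ, whose spread was taken from the other groups. Leaving such a library out drops its organ from the average. Without brain input replicate 2, Flt1 was 0.86 higher (limma adjusted p = 0.111) and Flt4 0.68 higher (limma adjusted p = 0.258), so that 1 call remained. Without trunk input replicate 1, Flt4 was 0.68 higher (limma adjusted p = 0.217). Without heart input replicate 1 the values were higher, at 1.84 for Kdr, 1.38 for Flt1 and 1.45 for Flt4.

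Nrp1, the co-receptor of VEGF-A and receptor of semaphorin 3A, had adult endothelial libraries from 81.5 to 357 bp per Mb (median 250) and inputs from 18.9 to 347 (median 178). At P6 the ranges were 134 to 255 (median 210) and 119 to 228 (median 184), and at E12 171 to 247 (median 196) and 174.9 to 192 (median 182). The groups overlapped at all 3 ages. The log2 difference was 0.51 in adults (SE 0.11, limma adjusted p = 1.48e-04), just past the size required, 0.25 at P6 (SE 0.09, limma adjusted p = 0.0215) and 0.10 at E12 (SE 0.16, 95% interval -0.22 to 0.42, limma adjusted p = 0.660). Leaving out single adult libraries moved the adult value between 0.40 and 0.61, and its adjusted p stayed at or under 9.32e-04. In 10 of the 22 omissions it fell under the size required. The call was also lost in a fit of the adult libraries alone with the replicate number as a block (0.52, limma adjusted p = 0.103; the same libraries without the block kept the call), with a pseudocount of 50 (0.38) and over organs with the same kind of read processing (0.48, limma adjusted p = 0.00466).

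Nrp2, the co-receptor linked to VEGF-C and to semaphorin 3F, had adult endothelial libraries from 142 to 322 bp per Mb (median 190) and inputs from 47.9 to 347 (median 171). At P6 the ranges were 194 to 312 (median 230) and 151 to 276 (median 197), and at E12 135 to 239 (median 195) and 185 to 192 (median 192). All 3 pairs of groups overlapped. The difference was 0.17 in adults (SE 0.12, 95% interval -0.07 to 0.41, limma adjusted p = 0.242), 0.28 at P6 (SE 0.10, limma adjusted p = 0.0183, under the size required, but called at 0.58 with limma adjusted p = 0.00101 at a −log10 q of at least 5) and 0.01 at E12 (SE 0.18, limma adjusted p = 0.975). Single input libraries moved the adult value: it was 0.035 without retina replicate 1 and 0.31 without retina replicate 2, under the size required. Without heart replicate 1, the only adult heart input, heart left the average and the value was 0.064. In heart the endothelial libraries lay above the inputs by 0.71 in adults and 0.70 at P6. At E12 heart was at -0.10 with overlap. Every endothelial library was also above every input in P6 brain (0.36) and P6 liver (0.53). In lung they lay below by -0.43 in adults and -0.21 at P6.

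How the peak length is scaled set the direction for Nrp2 at all 3 ages, for Nrp1 at P6 and E12 and for genes at large, while adult Nrp1 was 0.057 higher unscaled. With unscaled base pairs the median gene was -0.35 lower in adult endothelial than input lists, and 3.99% of all adult calls were higher against 38.5% when scaled. Relative to that median the adult members were close to their scaled places: Kdr was 1.99 above it unscaled and 1.94 scaled, Flt1 1.78 in both, Flt4 1.40 and 1.34, Nrp1 0.41 and 0.44, and Nrp2 0.05 and 0.11. Unscaled, Nrp2 was -0.30 lower in adults, and Kdr, Flt1 and Flt4 were called in adults and at P6. At E12 all 3 of those calls were lost unscaled (Kdr 1.03, limma adjusted p = 0.363; Flt1 0.70, limma adjusted p = 0.571; Flt4 0.60, limma adjusted p = 0.679). The E12 call of Kdr was also lost with peaks of a −log10 q of at least 5 (1.47, limma adjusted p = 0.0684). At P6 the unscaled share of calls that were higher was 6.04% against 40.5%, and at E12 10.1% against 75.5%.

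With an equal number of top peaks taken from each list the neuropilins were not close to their scaled places. Nrp1 was called higher at 2.08 in adults, 0.91 at P6 and 1.48 at E12, and Nrp2 at 1.05 at P6 and 3.49 at E12, but not in adults (0.34, limma adjusted p = 0.277). The receptors were further up as well: Kdr was 2.90 higher in adults, 3.79 at P6 and 4.49 at E12. Flt4 at E12 was 1.17 higher and not called (limma adjusted p = 0.128). The median gene lay at -0.035 in adults, and 54.8% of E12 calls were higher.

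Inside the windows the difference was spread over many regions. A region is a stretch under peaks of at least 10 of the 66 lists. Kdr had 26, all found in a larger share of endothelial than input lists (median difference 40.2 percentage points). Flt1 had 36, of which 30 were more frequent in endothelial and 5 in input lists. Flt4 had 16, of which 14 and 2. Nrp1 had 19, divided 10 and 9, and Nrp2 31, divided 12 and 18 with a median difference of -8.48 points. These shares come from the same lists as the totals above and are given without a test. A region can pass through endothelial lists alone, as 4 of Kdr did, and no share over regions of other genes was taken. All ages are pooled, with E12 making up 11 of 37 endothelial but 3 of 29 input lists. List length is not scaled here, and input lists had the higher median number of peaks at each age.

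**Figure D2:**
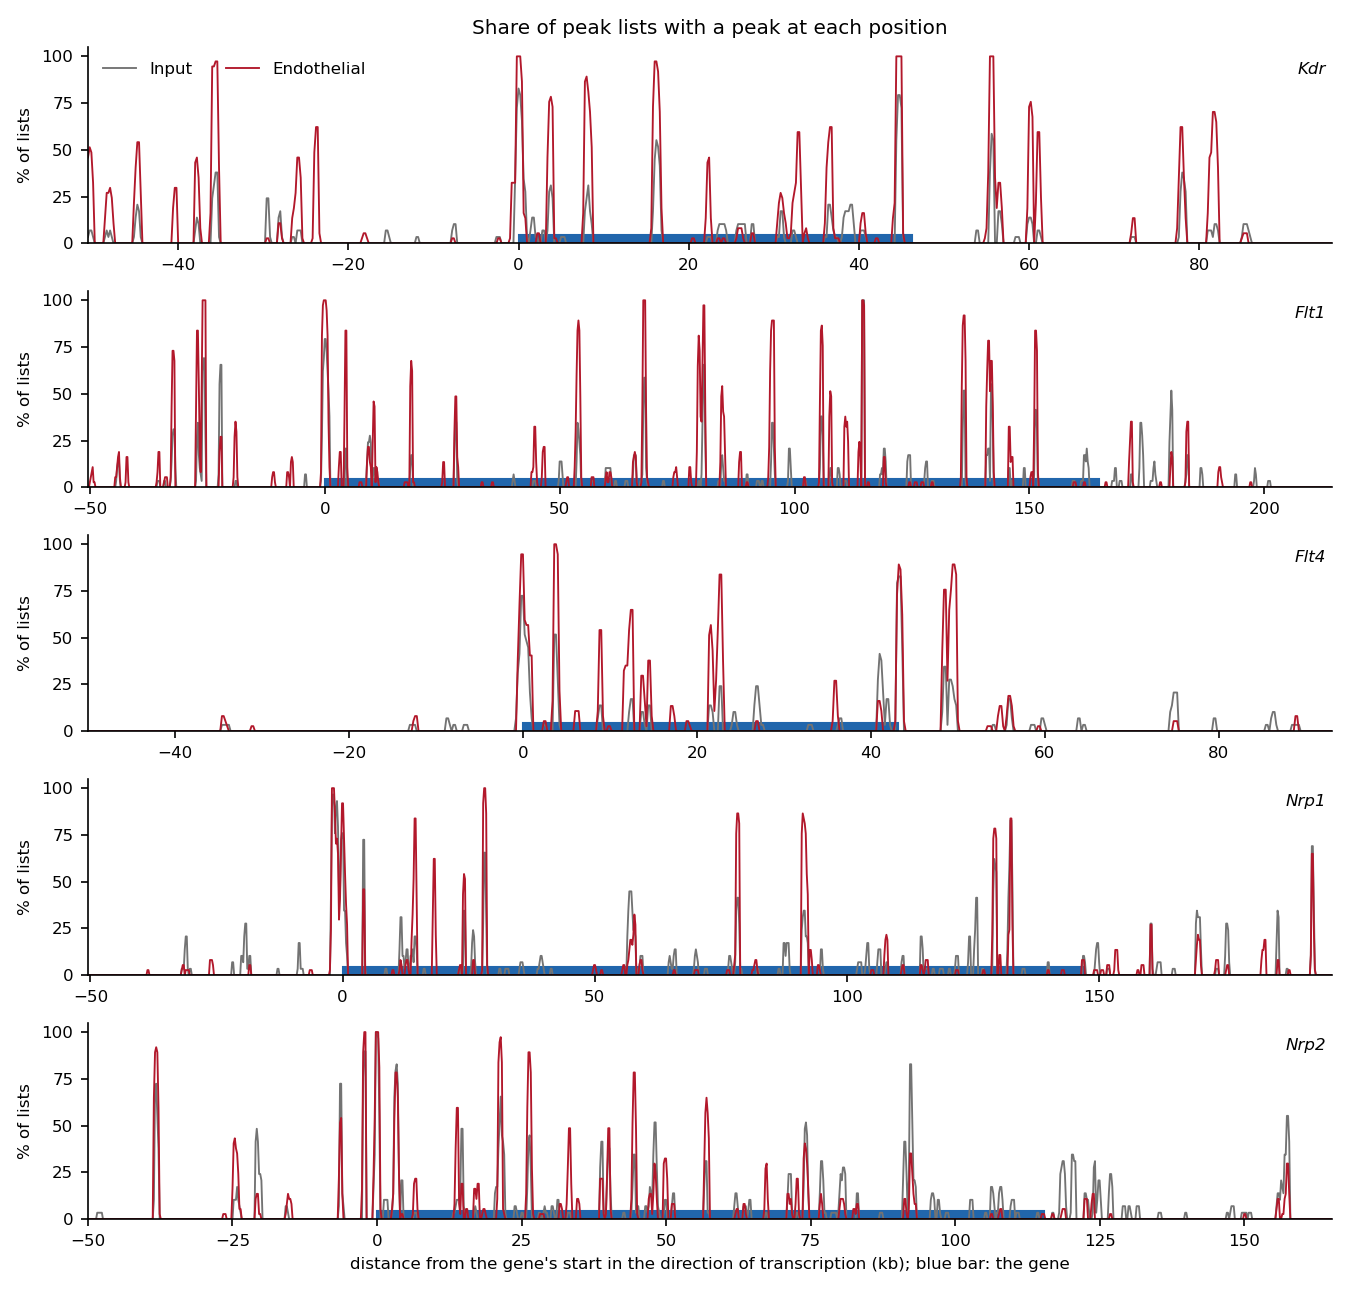
Percent of peak lists with a peak at each distance from the transcription start (kb, positive in the direction of transcription) around each gene; red is the 37 endothelial and grey the 29 input lists, and the blue bar is the gene. The red line stands above the grey over most of the Kdr window and inside Flt1. Over Nrp2 neither line is above throughout: 12 regions were more frequent in endothelial and 18 in input lists.

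For Kdr the region upstream at chr5:76002118-76002471, -23.8 kb from the start, was under a peak in 23 of 37 endothelial and 0 of 29 input lists. It was present in 3 of 3 E12 brain, 4 of 4 E12 trunk and 2 of 2 adult heart lists, and in 1 of the 10 other adult lists. Downstream regions at chr5:75896360-75897412 and chr5:75918179-75918643 each had 28 endothelial and 4 input lists. The first was in 3 of 12 adult, 14 of 14 P6 and 11 of 11 E12 endothelial lists, and the second in 7 of 12, 12 of 14 and 9 of 11.

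For Flt1 the intragenic region chr5:147646133-147646767, 79.6 kb into the gene, had 30 endothelial lists and 1 input list. All 11 E12 endothelial lists held it, whereas none of the 4 kidney lists (2 adult and 2 P6) did. A region 4.37 kb from the start, chr5:147721438-147721840, had 31 and 6 lists, and chr5:147630403-147631377 had 34 and 10. The region near the start was missing in adult brain and adult retina (0 of 2 each) and present in all other adult endothelial lists.

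For Flt4 the region behind the gene, chr11:49658696-49659593, had 33 endothelial and 8 input lists, and the intragenic chr11:49632053-49632789 had 31 and 7. For Nrp1 the intragenic region chr8:128377180-128377564, 18.3 kb from the start, had 23 endothelial and 0 input lists. All 11 E12 lists had it, as did both lists of adult liver, and none of the other 10 adult lists did. Its neighbour chr8:128372955-128373888 had 31 and 9. No Nrp2 region differed by 50 points or more. Its start, chr1:62702867-62703822, was open in all 66 lists.

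Regions confined to 1 organ among the endothelial lists of an age (in every list of the organ and at most 10% of the others) were most numerous for adult liver, with 4 in Flt1 and 4 in Nrp2, and for adult heart, with 4 in Kdr. Inside Nrp2 the stretch chr1:62753091-62753505, 50.0 kb from the start, was under a peak in 2 of 2 adult brain lists against 1 of 10 others, and in 3 of 3 E12 brain lists against 0 of 8 others. The adult liver stretch chr1:62760097-62760794 was in 2 of 2 liver lists, 0 of 10 others and 0 of 2 liver inputs. With 2 lists per organ these are counts only, without a share over regions of other genes. List length is not scaled, and adult liver replicate 2 has the longest adult endothelial list (47334 peaks). Every region lies under peaks of at least 10 of the 66 lists. A region confined to 1 organ at an age is therefore also present in lists of other ages or of input nuclei.

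Among organs of the adult, retina had the lowest mean for Kdr, Flt1, Nrp1 and Nrp2 (for Nrp2 149 against 151 in lung, within their spread), and liver the highest for the neuropilins. Adult retina endothelial libraries had 203 and 91.5 bp per Mb at Kdr, 2 of 2 above their own inputs (0 and 62.6). The other adult means of Kdr were 239 ± 22.4 (SD, n = 2) in brain, 356 ± 35.9 in liver, 391 ± 32.6 in lung, 446 ± 4.31 in kidney and 581 ± 1.1 in heart, each n = 2. In this order neighbours from liver to lung were within their spread, and the 2 retina libraries differed more from each other than those of any other organ. Each organ was tested against the mean of the other 5, and 5 of 30 adult pairs of gene and organ were called (0 unscaled). The called share of all genes was 26.1% for retina, 18% for liver, 14.1% for brain, 13.8% for lung, 12.7% for heart and 11.1% for kidney. The count of 5 of 30 lies near what these shares give for genes at large.

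**Figure D3:**
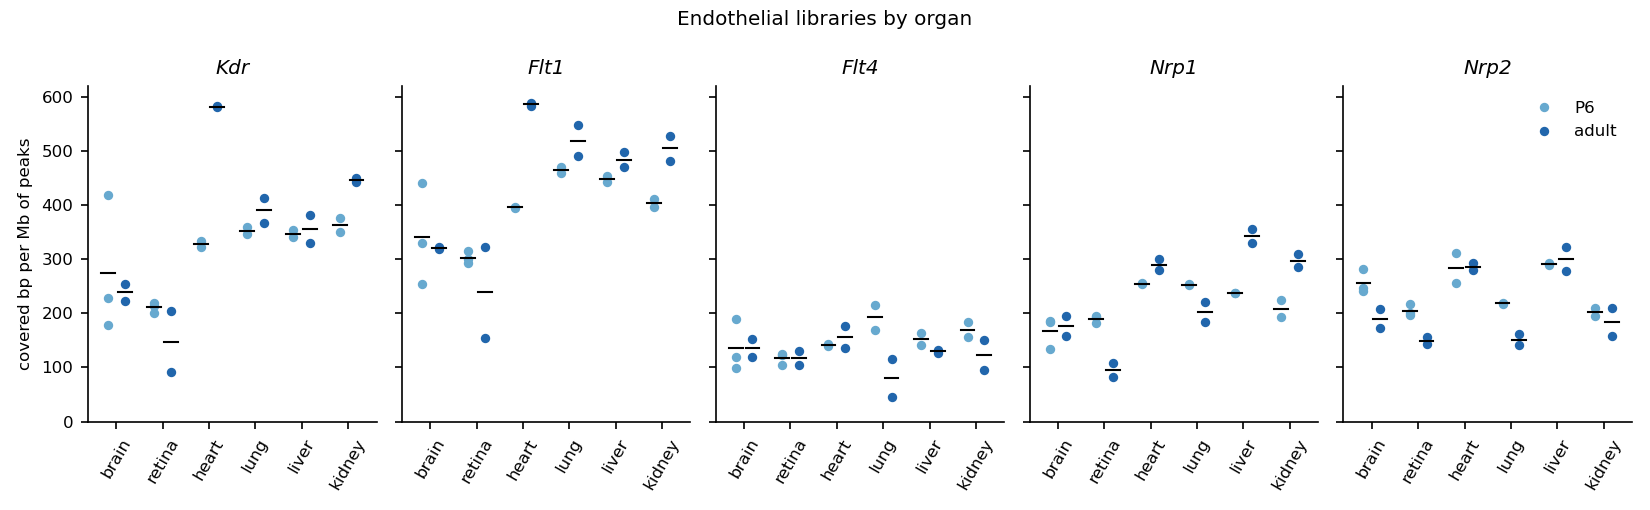
Cover of each gene in the endothelial libraries of 6 organs at P6 and in adults (bp per Mb; points are libraries, bars means). Adult retina is lowest at Kdr, Flt1 and Nrp1 and level with lung at Nrp2, and adult liver is highest at Nrp1 and Nrp2.

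Adult retina was lower at Kdr by -1.43 (SE 0.36, limma adjusted p = 0.00189), at Flt1 by -1.05 (SE 0.33, limma adjusted p = 0.0137) and at Nrp1 by -1.35 (SE 0.19, limma adjusted p = 3.04e-07), where 8.52% of genes were called lower in retina. Without retina replicate 2 the Kdr value was -0.89 (limma adjusted p = 0.262) and that of Flt1 -0.54 (limma adjusted p = 0.544), so those 2 calls rest on that library. Nrp1 in retina was 107 and 81.5 bp per Mb against 158 to 357 in the other 10 adult endothelial libraries, with no overlap, and stayed called in every omission (-1.53 to -1.17). Retina input nuclei were also lowest at Nrp1, at a mean of 39.2 (n = 2) against 103 to 295 in the other organs, and the endothelial minus input difference in retina was 1.21. At P6 the retina differences were -0.61 for Kdr (95% interval -1.22 to -0.00, limma adjusted p = 0.149) and -0.21 for Nrp1 (95% interval -0.53 to 0.11, limma adjusted p = 0.370).

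In adult liver, whose sinusoidal endothelium is fenestrated, Nrp1 reached 357 and 329 bp per Mb, the highest 2 of 12 adult libraries. Nrp2 reached 322 and 278 there, beside 292 and 280 in heart and 142 to 209 in the other 8. Liver exceeded the other organs by 0.77 at Nrp1 (SE 0.19, limma adjusted p = 0.00209) and by 0.66 at Nrp2 (SE 0.21, limma adjusted p = 0.0205), where 8.87% of genes were called higher in liver. Without liver replicate 1 the values were 0.72 (limma adjusted p = 0.0726) and 0.55 (limma adjusted p = 0.248). The Nrp2 call was also lost without liver replicate 2 (0.76, limma adjusted p = 0.0897), with equal numbers of top peaks (0.67, limma adjusted p = 0.264) and at a −log10 q of at least 5 (0.62, limma adjusted p = 0.175). Liver input nuclei were also high, at 295 bp per Mb for Nrp1 and 306 for Nrp2 (means of 2).

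At P6 none of 30 pairs of gene and organ was called by limma, and no other tool was run. The called share of all genes at this age was 17.3% for retina, 12.1% for liver, 7.99% for brain, 4.39% for lung, 2.66% for kidney and 2.33% for heart. P6 means of Kdr ran from 211 ± 9.02 (SD, n = 3) in retina and 275 ± 126 (n = 3) in brain to 363 ± 18.0 (n = 2) in kidney. The spread in brain came from replicate 1, whose list holds 27160 peaks against 79903 and 87133: it had 418 bp per Mb, the highest of the 14 P6 libraries. The part of list length in that value was not tested.

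Between ages, none of the 5 genes was called in endothelial nuclei. From P6 to adult over the same 6 organs the differences were 0.10 for Kdr, 0.11 for Flt1, -0.29 for Flt4 (SE 0.18, 95% interval -0.66 to 0.07, limma adjusted p = 0.166), -0.00 for Nrp1 and -0.24 for Nrp2 (SE 0.11, 95% interval -0.45 to -0.02, limma adjusted p = 0.0580), where 20.8% of genes were called. In the same comparison 5 of 7 lymphatic or Lyve1 genes and 4 of 6 pericyte genes were called lower in adults, as 13.6% of all genes were. Microglial genes had 3 of 6 lower, neural 4 of 8, mesenchymal 3 of 5, glial 1 of 6, erythroid 1 of 5 and epithelial 0 of 4. The part of any of these cell types in the values of Flt4 and Nrp2 was not tested. From E12 to P6, over brain and heart, Kdr was 0.53 higher (SE 0.28, limma adjusted p = 0.171) and Nrp2 0.48 higher (SE 0.16, limma adjusted p = 0.0379, under the size required), where 11% of genes were called. At a −log10 q of at least 5, Flt4 was called lower in adults than at P6 (-1.13, limma adjusted p = 0.00135), as was Nrp1 (-0.69, limma adjusted p = 0.0432), where 24.8% of genes were called. Unscaled, all 5 genes were called lower in adults than at P6 (-0.79 to -1.18), as 69% of all genes were called, with the median gene at -0.69 and 0.292% of calls higher against 34.6% when scaled. Input nuclei themselves changed: Flt4 was -0.60 lower in adult than P6 input (SE 0.19, limma adjusted p = 0.0116, where 9.83% of genes were called lower). The difference of endothelial from input nuclei did not differ by call between adult and P6 for any of the 5 genes (0 of 5, where 4.41% of genes were).

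In the brain single-cell libraries the 5 genes followed different courses over age. Flt1 was higher at each later age, Kdr and Nrp1 were highest at P8, and Nrp2 and Flt4 were highest at E9.5. Levels are CPM, the UMIs of the gene per 1000000 UMIs of all endothelial barcodes of the library, with exact Poisson 95% intervals that cover counting error only. With 1 library per age there is no test between ages. The library labelled E16.5 has E17.5 in the name of its deposited file, and the label is used here. The libraries fall into 2 sets: E9.5, P8 and adult shared 8 to 31 barcode sequences with each other and E12.5 and E16.5 shared 50, but only 0 to 3 were shared between the sets, although the labels give the same kit for all. Differences between the sets and between those ages cannot be told apart. Within the first set alone Flt1 was at 203, 1227 and 3495 and Kdr at 399, 927 and 311. From the youngest to the oldest library the endothelial barcodes numbered 5821, 6499, 3809, 4834 and 3249, with median UMIs of 7000, 10355, 8982, 8382 and 4832.

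**Figure D4:**
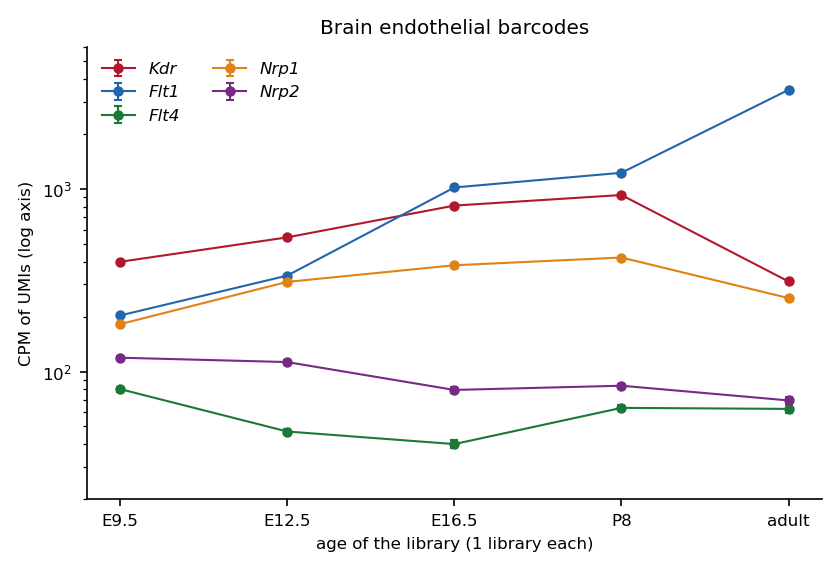
CPM in endothelial barcodes of the 5 brain libraries by age, on a log axis, with exact Poisson 95% intervals (often smaller than the point). Flt1 spans 203 at E9.5 to 3495 in adults, while Flt4 stays between 40.0 and 80.1.

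Kdr was at 399 CPM at E9.5 (393 to 405), 543 at E12.5 (538 to 548), 811 at E16.5 (803 to 820), 927 at P8 (919 to 935) and 311 in adults (304 to 319). No intervals of neighbouring ages overlapped, and P8 was 2.98-fold above the adult. Flt1 was at 203 (198.7 to 206.9), 335 (331 to 339), 1020 (1010 to 1029), 1227 (1219 to 1236) and 3495 (3471 to 3519) at the same ages, 17.2-fold from lowest to highest and in the order of age throughout. The 6 endothelial genes of the barcode rule were themselves lowest at E9.5. They summed to 2080, 4681, 10753, 7319 and 7334 CPM in order of age. The part of this in the low E9.5 levels of Flt1 and other members was not tested.

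Nrp1 was at 182, 310, 382, 421 and 252 CPM, 2.32-fold from E9.5 to P8. Nrp2 was at 119, 113, 79.3, 83.6 and 69.4, 1.71-fold from the adult to E9.5. Flt4 was at 80.1, 46.9, 40.0, 63.2 and 62.4, 2.00-fold from E16.5 to E9.5, and its intervals at P8 (61.2 to 65.2) and in adults (59.3 to 65.7) overlapped. A span of at least 2-fold between the highest and lowest age was common. It was reached by 4 of the 5 genes and by 78.5% of the 7850 genes at 20 CPM or more at some age. Flt4 sits at that line, with 1.88-fold when 2 of the 6 genes or a mitochondrial share of 5% set the rule. Nrp2 passed it under 3 other rules, with 2.60-fold at a mitochondrial share of at most 5%, 2.099-fold without barcodes holding markers of another cell type and 2.19-fold after thinning to 1000 UMIs.

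Set against other genes, Flt1 in the adult was 17.2-fold above E9.5, where 34.7% of genes were at least 2-fold higher and the median log2 ratio was 0.34. Genes here are those at 20 CPM or more in either of the 2 libraries compared. Kdr in the adult was 2.98-fold below P8, where 9.88% of genes were at least 2-fold lower, and Flt1 was 2.85-fold above P8, where 13.7% were at least 2-fold higher. From E12.5 to E16.5 Flt1 was 3.04-fold higher, where 8.21% of genes were at least 2-fold higher. The tables give 1 value per gene, so the membrane and soluble forms of Flt1 cannot be told apart.

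Of the UMIs of Flt1 and Kdr together, Flt1 made up 33.7% at E9.5, then 38.2%, 55.7% and 57.0% in the next libraries, and 91.8% in adults. Nrp1 made up 60.4%, 73.3%, 82.8%, 83.4% and 78.4% of the UMIs of both neuropilins. UMIs of these 3′ libraries are not scaled by gene length, and how well each gene is captured is unknown, so the shares are read across libraries only.

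Shares of barcodes with a UMI move with depth, so each barcode with at least 1000 UMIs was also thinned to 1000 UMIs. Shallower barcodes were left out of the thinned shares. Flt1 was found in 65.9%, 82.3%, 95.1%, 98.0% and 99.6% of endothelial barcodes from E9.5 to adult, and after thinning in 18.2%, 26.0%, 56.9%, 69.9% and 95.3%. Kdr was found in 79.8%, 90.6%, 95.7%, 97.1% and 72.3%, and after thinning in 30.1%, 36.9%, 48.7%, 58.7% and 28.4%. Both courses keep the order of the levels.

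Thinned shares of the other genes ran over the 5 ages from 15.965% to 35.4% for Nrp1, 4.75% to 10.0% for Nrp2 and 3.71% to 7.21% for Flt4. Barcodes of the same libraries with none of the 6 endothelial genes give the background. Their numbers and median UMIs in brackets include barcodes under 1000 UMIs, which the thinned shares leave out. Kdr was in 8.08% of those after thinning at E9.5 (909 barcodes, median 1745 UMIs), 2.17% at E12.5 (381 barcodes, 6369 UMIs), 8.58% at P8 (73 barcodes, 2019 UMIs) and 1.51% in adults (144 barcodes, 2822 UMIs), all below the endothelial share. Flt1 was at 4.11%, 1.01%, 1.74% and 8.37% in the same groups. Nrp1 was at 5.46%, 9.49%, 17.3% and 4.80%, and Nrp2 at 4.11%, 1.91%, 1.77% and 3.91%, which for adult Nrp2 is close to its endothelial share of 4.75%. Flt4 was at 2.14% at E9.5, 0.161% at E12.5 and 0.254% in adults, below its endothelial shares of 7.21%, 4.30% and 6.84%. At P8 the 73 such barcodes were too few and too shallow to set apart from the endothelial share of Flt4. At E16.5 only 20 barcodes had none of the 6 genes, too few to report. At E12.5 the 190 barcodes with 3 or more microglial markers and none of the 6 genes had Nrp1 at 173 CPM and Kdr at 25.4, so part of the Nrp1 UMIs outside the endothelial barcodes were in cells with microglial markers.

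Nrp1 and Nrp2 took opposite sides between arterial and venous barcodes. Endothelial barcodes were divided by detected genes of 3 lists (arterial such as Bmx, Gja4 and Efnb2, venous such as Nr2f2 and Slc38a5, tip cell such as Apln and Esm1): a barcode joined the list with at least 2 genes found and more than in either other list, and otherwise "other". None of the 5 genes is in those lists. The classes are ranges rather than types, many barcodes lie near their edge, and detecting 2 genes favours deeper barcodes (in adults a median of 6533 UMIs in arterial, 6111 in venous and 3836 in other barcodes). Numbers ran from 629 to 1182 arterial, 279 to 1368 venous, and 402 to 1668 tip barcodes from E9.5 to P8. The adult had 40 tip barcodes, too few to report.

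**Figure D5:**
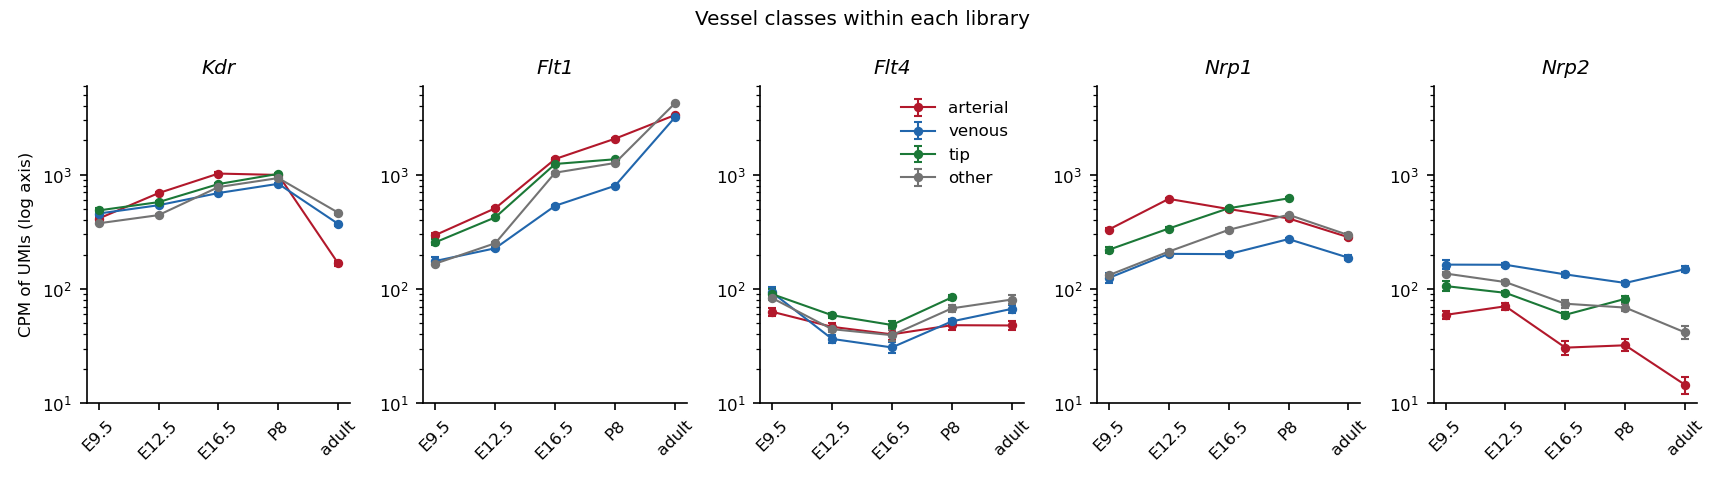
CPM of each gene in arterial, venous, tip and other endothelial barcodes by age, on a log axis, with exact Poisson 95% intervals. Nrp1 is higher in arterial than venous barcodes and Nrp2 the reverse in all 5 libraries.

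Nrp1 was 2.66-fold higher in arterial than in venous barcodes at E9.5 (331 against 124.7 CPM), 3.03-fold at E12.5 (615 against 203), 2.49-fold at E16.5 (501 against 202), 1.52-fold at P8 (415 against 273) and 1.51-fold in adults (284 against 188). Nrp2 was 2.76-fold higher in venous than in arterial barcodes at E9.5 (163 against 59.2), 2.31-fold at E12.5 (163 against 70.4), 4.38-fold at E16.5 (134 against 30.6), 3.52-fold at P8 (113 against 32.0) and 10.3-fold in adults (149 against 14.4). The Poisson intervals were apart in all 10 of these pairs. Against other barcodes, Nrp1 in arterial barcodes was 2.51-fold, 2.90-fold and 1.52-fold higher at E9.5, E12.5 and E16.5. It was not higher than in other barcodes at P8 (415 against 447 CPM) or in adults (284 against 296, overlapping intervals). Nrp1 made up 84.8% to 95.2% of neuropilin UMIs in arterial and 43.3% to 70.8% in venous barcodes.

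Flt1 was higher in arterial than in venous barcodes before adulthood, by 1.69-fold, 2.24-fold, 2.57-fold and 2.59-fold in order of age (2071 against 801 CPM at P8). In adults the ratio was 1.05 (3337 against 3188), and other barcodes were highest at 4234. Kdr was 1.28-fold, 1.48-fold and 1.196-fold higher in arterial than venous barcodes at E12.5, E16.5 and P8, and 1.11-fold higher in venous barcodes at E9.5. In adults Kdr was 2.22-fold higher in venous than in arterial barcodes (371 against 167), and other barcodes were again highest at 465.

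Tip-marker barcodes exceeded other barcodes in Nrp1 by 1.67-fold, 1.59-fold, 1.55-fold and 1.39-fold from E9.5 to P8. The same ratio was 1.54, 1.69, 1.19 and 1.08 for Flt1 and 1.30, 1.30, 1.06 and 1.09 for Kdr. For Nrp2 it was 0.78, 0.81, 0.80 and 1.19. The Flt4 ratio of tip to other barcodes was 1.08, 1.32, 1.23 and 1.25 at those ages, with overlapping intervals at E9.5. Flt4 had no steady direction between arterial and venous barcodes. It was 1.48-fold higher in venous barcodes at E9.5 (93.1 against 63.0 CPM) and 1.40-fold in adults (66.8 against 47.8), and 1.28-fold and 1.30-fold higher in arterial barcodes at E12.5 and E16.5, with overlapping intervals at P8. Barcodes with at least 2 of 7 lymphatic or Lyve1 genes (263, 400, 194 and 172 from E9.5 to P8) had Nrp2 at 194, 271, 109 and 119 CPM, above all endothelial barcodes of each library. Their Flt4 was at 76.9, 81.3, 40.3 and 50.6, above all endothelial barcodes only at E12.5 beyond the counting interval.

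Most endothelial barcodes held UMIs of several of the 5 genes: the mean number found was 2.89, 3.47, 3.502, 3.73 and 2.91 from E9.5 to adult. Barcodes with none numbered 358, 166, 10, 15 and 9. Libraries shared up to 50 barcode sequences (E12.5 with E16.5, 35 of them endothelial). RNA of other cells was present beside these values. Erythroid genes summed to 256, 5844, 11039, 15909 and 8286 CPM in endothelial barcodes and all 5 were found in each library, while the 6 pericyte genes summed to 9.96, 96.7, 203, 714 and 1402, in the same age order as Flt1. The 6 microglial genes ran from 7.77 to 223, the 8 neural from 123 to 377, the 6 glial from 12.2 to 70.5 and the 5 mesenchymal from 15.7 to 54.2 CPM. The 4 epithelial genes summed to 65.96 CPM at E9.5, the age at which Nrp2 and Flt4 were highest, and to 0.66 to 3.75 at the other ages, and their part in those levels was not tested. Neurod6 was at 0 at E9.5 and in adults, Olig1 at E9.5 and E12.5, and Aqp4 at E12.5. Without barcodes holding 2 or more markers of another cell type (15.0%, 72.0%, 47.6%, 85.0% and 62.1% of barcodes), the members' levels moved by factors between 0.84 and 1.11.

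The genes whose levels were most like each member over 19 sums of barcodes (library by class, 6197 genes at 20 CPM or more) were found by Pearson's r of log2 levels. The sums share 5 libraries and their depth, and r is a description. Flt1 was most like Fbxo9 (0.98), Pcmtd1, Picalm, Tmem87b and Pnpla2 (0.98). Kdr was most like 2010320M18Rik (0.90), Abhd17a, Uqcc3, Ackr2 and Mdp1 (0.87), and Nrp1 most like Tnip1 (0.87), Rnf185, Clec1a, Plekha1 and Sat1 (0.83). Nrp2 was most like Ndufa8 (0.89), Crlf3, Mrrf, Atpaf1 and Cdca7 (0.83), and Flt4 most like Ddx54 (0.86), Usp15, Phrf1, Rnf20 and Ddx23 (0.84). Among the members r was 0.58 for Kdr with Nrp1, 0.47 for Flt1 with Nrp1, 0.08 for Kdr with Flt1, -0.56 for Nrp1 with Nrp2 and -0.65 for Flt1 with Nrp2.

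Other genes of the pathway came from 7 lists with 67 genes. In ATAC-seq 22 were called higher and 4 lower in adult endothelial nuclei, 23 and 5 at P6, and 22 and 1 at E12, where 8.71%, 7.67% and 14% of all genes were higher and 13.9%, 11.3% and 4.54% lower. The medians were 0.34, 0.28 and 0.34, beside 0.065, 0.061 and 0.21 over all genes. Co-receptors and phosphatases held 7 of 9 higher in adults, 6 at P6 and 5 at E12. Adult values were 2.44 for Tek, the angiopoietin receptor, 1.64 for Ptprb, the phosphatase VE-PTP, and 1.24 for Cdh5, VE-cadherin, which is also a marker of the barcode rule. The 15 targets and feedback genes held 7, 10 and 8 higher and none lower: adult Sox17, an arterial transcription factor, was 2.76 higher, Hlx 1.69 and Pdgfb, the ligand that recruits pericytes, 1.32.

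Of the 24 signalling genes 4, 4 and 7 were higher and 1, 1 and 0 lower, with medians of 0.088, 0.24 and 0.29. All genes had 8.71%, 7.67% and 14% higher and medians of 0.065, 0.061 and 0.21. In adults Pik3cb was 0.73 higher, Plcg1, the phospholipase bound by VEGFR2, 0.70 higher, and Prkca, a protein kinase C, -1.80 lower. The ligand list had 0 of 5 higher at any age and 1 lower in adults (Vegfa, -0.60) and at P6 (Vegfd, -0.67). Ccbe1 and Adamts3, which activate VEGF-C, were lower in adults (-1.61 and -0.59). Class 3 semaphorins had 3 of 7 higher in adults, among them Sema3g at 0.62, Sema3f at 0.51 and Sema3b at 0.50. At P6 2 were higher and 2 lower (Sema3e at -1.04), and at E12 1 was higher and 1 lower (Sema3c at -1.49). Of 5 plexins only Plxnd1 was called, at 0.67 in adults. All of these are endothelial minus input log2 differences, called by limma.

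In the single-cell libraries 66 of the 67 genes matched by symbol and 34 reached 50 CPM at some age. Between E9.5 and adult 20 of the 34 were at least 2-fold higher and 3 at least 2-fold lower. Of the 7277 genes at 20 CPM or more in either library, another filter than that of the 34, 34.7% and 22.2% were. Between P8 and adult the counts were 8 and 4 (13.7% and 9.88% of genes by the same 20 CPM filter). Between E9.5 and P8 they were 16 and 0 (27.4% and 16.5%), and between E12.5 and E16.5 6 and 0 (8.21% and 5.95%). The semaphorins Sema3c and Sema3g were at 427 and 151 CPM in adults against 0.606 and 13.5 at E9.5. Among their plexin partners, Plxna2 was at 335 against 15.3 and Plxnd1 at 48.4 against 189. Ptprb was at 2079 against 42.4, Tek at 307 against 88.7 and Gipc1, an adaptor that binds the neuropilin tail, at 39.5 against 160.

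Of the 15 signalling genes that reached 50 CPM, 7 were at least 2-fold higher in adults than at E9.5 and none lower. Against P8 2 were higher and none lower. Among genes at 20 CPM or more in either library the shares were 34.7% and 22.2%, then 13.7% and 9.88%. Nos3, endothelial nitric oxide synthase, was at 170 against 37.7 and Pik3ca at 67.3 against 21.2. Among the targets Sox17 was at 580 against 70.9, Pdgfb at 240 against 14.3 and Nr4a1 at 76.0 against 2.88. Apln, a tip-cell peptide, was at 27.6, 139, 196 and 303 from E9.5 to P8 and at 0.341 in adults. The ligand Vegfc ran from 21.6 to 54.1 CPM over the 5 ages.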

How the data were processed

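The authors' deposited peak lists (MACS2 broad peaks, per the file headers called per library with shift -100, extension 200 and no control) give each peak's fold enrichment as a ratio, a signal pileup, and −log10 p and q. Peak positions were used for cover, and the authors' −log10 values only in alternatives. Per the submitters' processing notes reads were aligned to mm10 with Bowtie2, and the file headers hold 5 kinds of aligned file name. The authors' deposited single-cell tables hold UMI counts per barcode from Cell Ranger, per the labels' 10x 3′ protocol. The headers of 3 libraries (E9.5, P8 and adult) name version 4.0.0 and the other 2 none. The E16.5 table came without gene names and took the row order of E12.5: Spearman's rho of the 2 libraries over genes was 0.96 in that order and 0.35 shifted by 1 row. No doublet caller was run.

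Peak cover of the gene and 50 kb on each side was divided by the library's peak length, and log2(bp per Mb + 10) was fitted with limma 3.58.1 (R 4.3.3; eBayes with trend) on all 66 libraries, with 1 mean for each of 30 groups of organ, age and nuclei. Contrasts weighted organs equally, and p-values were Benjamini-Hochberg adjusted over 20817 of 21883 protein-coding genes, covered in at least 4 libraries (all 5 members passed). Fold changes on this scale understate changes of thinly covered genes. On data simulated from the same 20817 genes with 200 changed by a log2 of 1, 90.5% were called in the adult comparison with input, 97.5% at P6 and 81% at E12. The simulation used independent normal noise, had no effect of list length, and changed far fewer genes than were called in these data. These shares therefore do not give the recovery in the real lists. Per-locus depth is not given by peak lists, so precision there is the spread between libraries. In single cells levels have exact Poisson and shares exact Clopper-Pearson 95% intervals.

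The members, lists and rules were chosen with earlier results of these data known. Named regions are the one over each start, up to 3 per gene with the greatest endothelial minus input share (at least 50 points) and organ-restricted ones. Named pathway genes are up to 3 per list with the greatest called difference or level. Alternatives changed the scaling, list length, q, window, pseudocount, filter, block and barcode rule, and left out each library in turn. Genomic sequence beyond RefSeq promoters and the RNA-seq files were not used here.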

Additional observations from a re-analysis of the deposited data

Results flagged for a closer look

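Libraries far from the rest of their group were looked for in the 10 groups of 4 libraries (5 genes in the E12 heart and trunk endothelial libraries), by a rule that chance alone meets in about 1 in 20 groups. Kdr in E12 heart endothelial replicate 2 had 197.72 bp per Mb against 147 to 154 in the other 3, a gap of 0.866 of the range. Nrp2 in E12 heart endothelial replicate 3 had 135.214 against 194 to 197, a gap of 0.961 of the range. That replicate has the shortest E12 list (39096 peaks) and the fewest tags of all libraries (10.1 M), and the part of depth in its value was not tested.

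Nrp2 had opposite sides in lung and heart. In lung the endothelial libraries lay below every input by -0.43 in adults (161 and 142 bp per Mb against 164 and 258) and by -0.21 at P6 (219 and 217 against 237, 276 and 252). In heart they lay above every input at both ages. The other 4 adult organs overlapped with their inputs, with brain at -0.072 and liver at -0.018. The difference between organs was not tested.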

How the results depend on the processing

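Leaving out each library in turn gave 3 to 4 members called in the adult comparison with input, 3 to 3 at P6, 1 to 3 at E12, 0 to 0 between adult and P6, 0 to 1 between P6 and E12 (Nrp2 at 0.53 without brain endothelial E12 replicate 1), and 3 to 7 adult and 0 to 0 P6 pairs of gene and organ. The 3 came without liver replicate 1 or retina replicate 2. Values near 0 changed sign in these omissions: Nrp2 at E12 (-0.028 to 0.067), Nrp1 from P6 to adult (-0.031 to 0.029) and Flt4 from E12 to P6 (-0.071 to 0.15). The number of all genes called moved as well, from 1415 to 4456 over the E12 omissions. A lower count of members need therefore not be particular to them.

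Without scaling, 0 members were called at E12 (3.99% of all genes), 5 between adult and P6 (69%), and 0 adult pairs of organ and gene. The equal number of top peaks gave 5 members at P6 (23.8%) and 3 P6 organ pairs, and a −log10 q of at least 5 gave 2 members between adult and P6 (Flt4 and Nrp1, lower; 24.8%) and 1 P6 organ pair. A 5 kb window gave 8 adult and 1 P6 organ pairs, and a pseudocount of 50 gave 1 P6 pair. Shares of all genes called per organ are not given here for these settings. A move of the members can therefore not be told from a move of genes at large. With top peaks E12 Nrp1 and Nrp2 were called at 1.48 and 3.49, and Flt4 (1.17) was not. Directions reversed without scaling for Nrp2 in adults (-0.30), Nrp1 and Nrp2 at P6 (-0.091 and -0.056) and at E12 (-0.34 and -0.43), Kdr and Flt1 from P6 to adult (-0.80 and -0.79), and all 5 from E12 to P6 (Kdr -0.14, Flt1 -0.44, Flt4 -0.62, Nrp1 -0.63, Nrp2 -0.19). The unscaled median gene lay at -0.35, -0.25, -0.19, -0.69 and -0.55 in these 5 comparisons, and relative to it Kdr and Nrp2 from E12 to P6 were at 0.42 and 0.36 (0.46 and 0.40 scaled). E12 Nrp2 was -0.0065 at the stricter q and -0.25 with 100 kb. From P6 to adult Kdr was -0.33 and Flt1 -0.16 with top peaks and -0.11 and -0.033 at the stricter q, and Nrp1 0.030 with 5 kb, 0.014 with pseudocount 50 and 0.012 with the replicate block in endothelial libraries alone. From E12 to P6 Flt1 was -0.058 with top peaks, Flt4 -0.058 with 100 kb and Nrp1 -0.033 with that block. The cause was not tested.

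Same-numbered endothelial and input libraries did not all deviate together (r -0.35 to 0.29 over 20 pairs, 7 above 0.1, among them the 4 kidney pairs; where both groups hold 2 libraries, both pairs give the same r), so the numbers were not taken as pairs. The fits with the replicate block also kept only the libraries compared. They called 3 members in adults (Nrp1 at 0.52 was lost), 3 at P6, and 0 between ages, with 1930 genes called in adults (4704 in the fit of all libraries) and 209 between P6 and E12 (2281). In single cells Kdr, Flt1 and Nrp1 had a span of at least 2-fold under every barcode rule run, whereas Flt4 and Nrp2 lay on either side of it by rule. Under other barcode rules 92 levels left their counting interval, by factors of 0.66 to 1.39. Each E12 organ, adult brain and adult heart rest on 1 input library, and leaving it out drops that organ from the comparison with input.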
